A study of Mus musculus with 2 samples.

Results

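The 45 genes described here encode Wnt ligands, their receptors and coreceptors, the secreted SFRP and DKK modulators, the Axin scaffolds and the TCF/LEF transcription factors. They were chosen by gene symbol alone, as all protein-coding Wnt, Fzd, Sfrp1 to Sfrp5, Dkk, Lrp5, Lrp6, Axin, Tcf7, Tcf7l1, Tcf7l2 and Lef1 genes, and they are 45 of 55536 annotated genes, of which 21901 have a protein-coding transcript. The group holds 19 ligands, 10 Frizzled receptors, 2 coreceptors, 4 SFRP genes, 4 DKK genes, 2 Axin genes and 4 TCF/LEF genes. Frzb, which encodes another secreted Frizzled-related protein, does not match the symbol rule and is described with the other pathway genes.

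Left cerebral cortex was taken for total RNA-seq from female B6CASTF1/J mice, hybrids of C57BL/6J and CAST/EiJ obtained from The Jackson Laboratory, at postnatal day 4. There was 1 group of 2 libraries, each made from 300 ng of RNA with ERCC spike-ins, and no genotype, treatment or age was contrasted. The labels number the animals separately and call the libraries biological replicates 1 and 2, but they give both the same donor identifier, so the spread between libraries may be partly technical. The results below are therefore levels, balances between related genes, and differences between these libraries, and no test between conditions was possible.

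Wnt proteins are secreted, lipid-modified signals that bind a Frizzled receptor, and in the canonical branch also the coreceptors Lrp5 or Lrp6. Binding inactivates a complex built on Axin that otherwise marks beta-catenin for degradation, and beta-catenin then acts with TCF/LEF factors on target genes. SFRP proteins bind Wnt ligands outside the cell and DKK proteins act on Lrp5 and Lrp6, while other branches use Frizzled receptors without beta-catenin; in the developing cortex the pathway is known for roles in progenitor division, axon growth and the vessels of the brain.

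The libraries held 29310533 (replicate 1) and 28844674 (replicate 2) expected gene counts, so that a count of 0 allows up to 3 counts, or 0.102 and 0.104 ppm, which covers counting error only. Levels are in TPM, a unit that corrects for transcript length and library size, from the first of 2 sets of deposited tables, and detected means a TPM of 1 or more in each library. Markers of the labelled tissue were high: the excitatory neuron list summed to 518 TPM in replicate 1 and 535 in replicate 2, with Slc17a7, a vesicular glutamate transporter, highest at 139.82 and 144.96 TPM, and the inhibitory neuron list summed to 201 and 213, with Gad1, which makes GABA, highest at 70.28 and 82.44. The lists of 2 other sources differed between the libraries: choroid plexus markers summed to 219 TPM in replicate 1 and 6.41 in replicate 2, and blood markers to 477 and 62.9. The remaining summed levels, replicate 1 first, were 350 and 349 for astrocytes, 166 and 175 for radial glia, 109 and 117 for oligodendrocyte precursors, 42.9 and 40.4 for oligodendrocytes, and 31.4 and 36.0 for microglia. They were 116 and 122 for endothelium, 60.6 and 61.0 for pericytes, 104 and 105 for meninges and fibroblasts, 83.6 and 88.8 for Cajal-Retzius cells, 66.1 and 73.2 for thalamus, 68.6 and 74.8 for hippocampus, and 65.1 and 63.8 for striatum. Single genes carried much of some sums. In the Cajal-Retzius list Reln was at 78.93 and 84.65 TPM, and in the hippocampus list Zbtb20 was at 43.16 and 46.42. These sums therefore do not measure how much of such tissue was present. No marker of any list was at 0 in both libraries. In bulk tissue, fewer cells of a type and less RNA per cell cannot be told apart.

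Wnt ligands carry a lipid that Porcn attaches to a conserved serine and that Frizzled receptors bind. The stretches around the codon of that serine, printed in capitals, are shown for the 8 detected ligands, because they show both what these genes share and the letters by which reads of related ligands can be told apart. They are coding sequence from GENCODE M21 transcripts on GRCm38 (mm10), read 5′ to 3′ on the strand of the gene, 33 bases each:
Wnt7b, chr15:85537806-85537838, minus strand: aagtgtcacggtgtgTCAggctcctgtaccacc
Wnt7a, chr6:91366266-91366298, minus strand: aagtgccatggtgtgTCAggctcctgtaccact
Wnt5a, chr14:28522512-28522544, plus strand: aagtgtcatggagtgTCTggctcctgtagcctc
Wnt5b, chr6:119433794-119433826, minus strand: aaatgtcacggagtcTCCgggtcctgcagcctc
Wnt4, chr4:137296342-137296374, plus strand: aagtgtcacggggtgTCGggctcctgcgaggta
Wnt6, chr1:74784169-74784201, plus strand: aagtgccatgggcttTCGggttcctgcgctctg
Wnt9a, chr11:59330923-59330955, plus strand: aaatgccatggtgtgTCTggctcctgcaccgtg
Wnt3, chr11:103812311-103812343, plus strand: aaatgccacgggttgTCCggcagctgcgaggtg
The search was made in 18 of the ligands and found the conserved pattern in all 18. The serine codon was TCA in 5 ligands, TCC in 5, TCT in 4, TCG in 2 and AGT in 2, the last in Wnt2 and Wnt2b.

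Of the 45 genes, 28 were detected, 62.2%, against 59.8% of all protein-coding genes, so the share of detected genes was near the background. The detected genes were low by comparison: their median level was 5.59 TPM, against 17.2 TPM for all detected protein-coding genes, and 7 of the 45 stood above 10 TPM in both libraries. The highest of each role were Wnt7b, Fzd3, Lrp6, Sfrp1, Dkk3, Axin2 with Axin1, and Tcf7l2. Of the 17 genes not detected, 3 had no count in either library, and 36 of the 45 had at least 10 counts in both, so several of the undetected genes were low but measured.

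**Figure D1:**
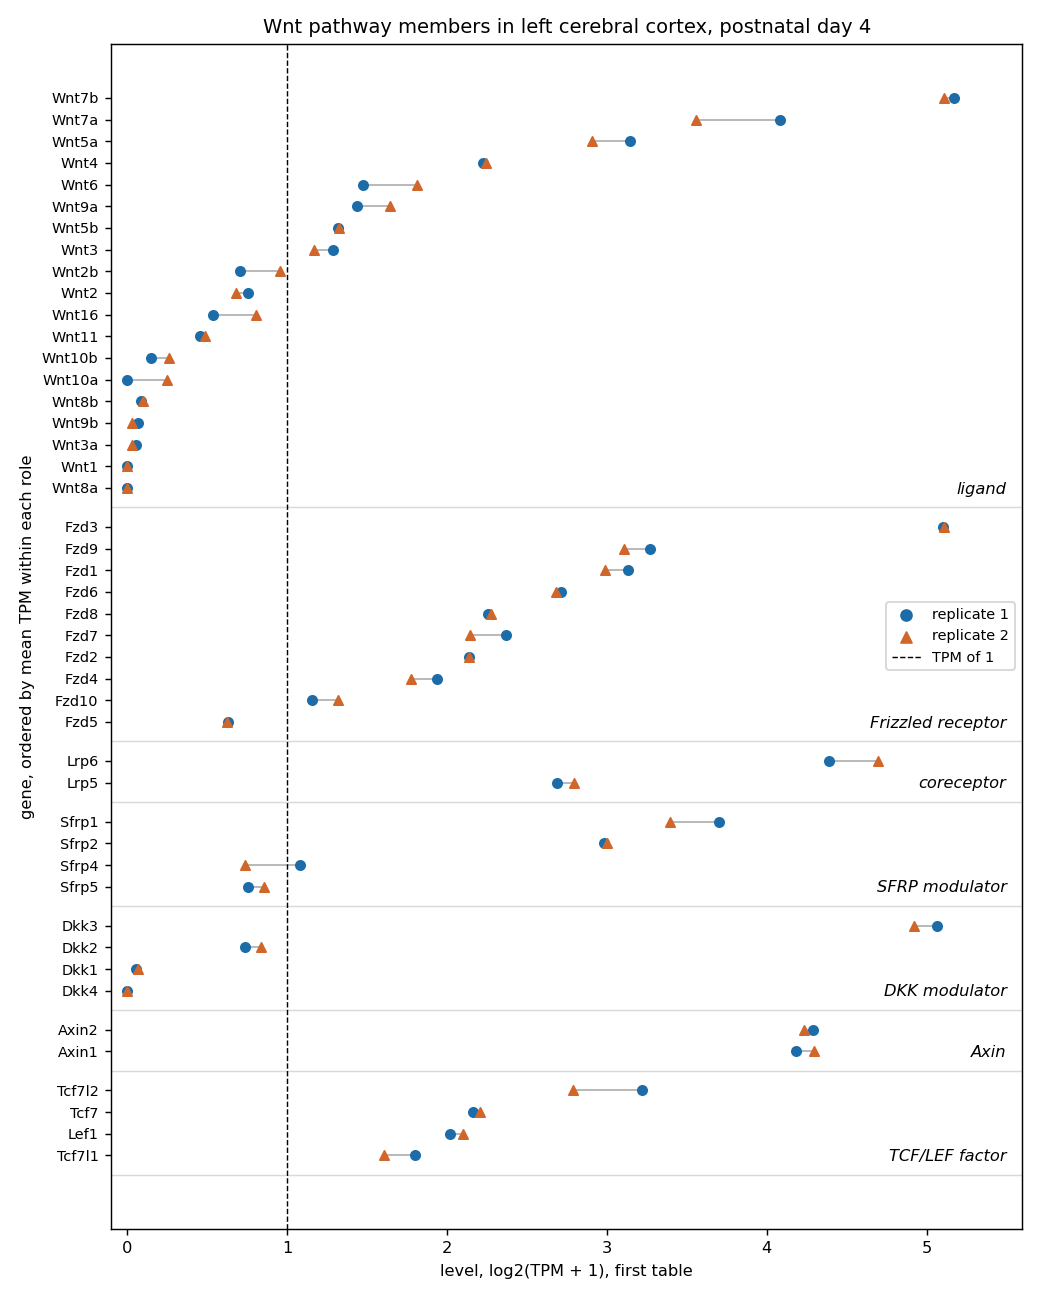
Level of each of the 45 genes as log2(TPM + 1) on the x axis, with genes on the y axis grouped by role; circles are replicate 1, triangles replicate 2, grey lines join the libraries and the dashed line marks a TPM of 1. Wnt7b, Fzd3 and Dkk3 lie farthest to the right, and 11 of the 19 ligands lie left of the dashed line in both libraries.

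Among the ligands, Wnt7b had the highest level. Wnt7b (chr15:85535437-85582473), a canonical ligand known for roles in brain vessels and dendrite growth, was at 35.09 TPM in replicate 1 and 33.54 in replicate 2, a mean of 34.3 ± 1.10 TPM (SD, n = 2), from 2061 and 1860 counts. It made up 49.2% and 51.5% of the summed ligand level, which was 71.4 TPM in replicate 1 and 65.1 in replicate 2. Its values in both libraries lay above those of every other ligand.

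Wnt7a, its closest relative, stood next but with the libraries apart. Wnt7a (chr6:91363981-91411363) was at 15.95 TPM in replicate 1 and 10.76 in replicate 2, although its counts were 412 and 376. Restricted to the protein-coding transcript, Wnt7a-201, it was at 6.29 and 6.34 TPM. The libraries thus differed in the full gene level and hardly in the coding level. Transcripts of other biotypes took 60.6% of the Wnt7a level in replicate 1 and 41.1% in replicate 2. Most of that came from Wnt7a-203, 293 bases long, with 5.84 and 3.58 TPM from 22.0 and 12.9 counts, and the rest from Wnt7a-202, 297 bases long, with 3.83 and 0.84 TPM from 14.7 and 3.07 counts. All exons of these short transcripts lie inside the noncoding end of the last exon of Wnt7a-201 (chr6:91363981-91365851), and in the second table both were at 0 in both libraries. Few reads on a short transcript therefore carried much of the Wnt7a TPM.

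The ratio of Wnt7b to Wnt7a depended on which transcripts were counted. Over all transcripts, Wnt7b stood at 2.20 times Wnt7a in replicate 1 and 3.12 times in replicate 2. Over coding transcripts the ratios were 5.55 and 5.20, and by the second quantification they were 4.70 and 4.67. Wnt7b was higher in each of these, by a mean log2 ratio of 1 added to each TPM, Wnt7a over Wnt7b, of -1.32 ± 0.33 over all transcripts and -2.26 ± 0.06 over coding transcripts (SD, n = 2). Related genes were called apart where this log2 ratio was past 1 or -1 in each library, in the same direction; with 2 libraries an exact two-sided sign-flip test cannot go below p = 0.5, so no p is given for the pairs. The coding sequences are 76.8% identical over 1047 aligned bases, with no identical run longer than 23 bases. The start of their last exon shows how the bases that differ are spread; the 21 of 120 bases that differ are in capitals, on GRCm38, both on the minus strand of the chromosome:
Wnt7a, chr6:91366209-91366328: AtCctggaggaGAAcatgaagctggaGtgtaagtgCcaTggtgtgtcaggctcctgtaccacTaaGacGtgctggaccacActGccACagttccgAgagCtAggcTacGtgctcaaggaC
Wnt7b, chr15:85537749-85537868: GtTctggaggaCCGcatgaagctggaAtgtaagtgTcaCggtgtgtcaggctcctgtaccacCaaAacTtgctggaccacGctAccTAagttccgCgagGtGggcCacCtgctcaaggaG
The expected counts of all 45 genes were whole numbers with a posterior SD of 0 in both libraries, as for 82.1% of detected protein-coding genes, so the first table shows no read split between these and other genes.

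The other detected ligands were lower. Wnt5a, a ligand best known for branches without beta-catenin, was at 7.83 and 6.50 TPM in replicates 1 and 2, from 466 and 458 counts. Its coding transcripts gave 3.95 and 3.75 TPM, because 49.6% and 42.3% of its level was assigned to other transcripts. Wnt5b, its relative, was at 1.49 and 1.50 TPM, from 64 and 63 counts. Wnt5a was thus called above Wnt5b over all transcripts, with a log2 ratio of 1.71 ± 0.17, but not over coding transcripts, where it was 0.96 ± 0.05.

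Wnt4, known from kidney and gonad development, was at 3.68 and 3.74 TPM. Wnt6 was at 1.78 and 2.51 TPM and Wnt9a at 1.71 and 2.12. Wnt3, a canonical ligand, was at 1.44 and 1.25 TPM from 83 and 69 counts. Values of Wnt6 and Wnt9a overlapped between the libraries, so their order is not resolved, whereas both values of Wnt4 lay above all values of the 4 lower detected ligands.

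Of the 11 ligands not detected, 4 had levels between 0.37 and 0.94 TPM. Wnt2b was at 0.63 and 0.94 TPM, Wnt2 at 0.69 and 0.60, Wnt16 at 0.45 and 0.75, and Wnt11 at 0.37 and 0.40. In the first table the level of Wnt11, from 10 and 14 counts, lay almost wholly on transcripts without a coding biotype. Its coding transcripts gave 0 and 0.04 TPM there. By the second quantification the coding transcript Wnt11-203 held 31.5% in replicate 1, and the coding transcript Wnt11-205 80.7% in replicate 2. The split by biotype was therefore not resolved for Wnt11. These genes were measurable but low.

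The remaining 7 ligands were at or near 0. Wnt10b was at 0.11 and 0.20 TPM from 4 counts in each library, Wnt10a at 0 and 0.19 from 0 and 6 counts, and Wnt8b at 0.06 and 0.07 from 4 and 3 counts. Wnt9b was at 0.05 and 0.02 TPM from 4 and 2 counts and Wnt3a, a canonical ligand of the embryonic cortical hem, at 0.04 and 0.02 from 2 and 1. Wnt1 and Wnt8a had 0 counts in both libraries. Plain ratios of TPM against these genes are not given, since each would rest on a handful of counts or none.

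In most pairs of Wnt genes that lie beside each other in the genome, with no other coding gene between, only 1 gene was detected. Of all 19 ligands 8 were detected, and the pairs were not tested against that share. Wnt6 lies 6.19 kb from Wnt10a on chromosome 1, Wnt9a 16.2 kb from Wnt3a on chromosome 11, and Wnt3 24.3 kb from Wnt9b on chromosome 11. In each of these pairs the former was detected and the latter had at most 6 counts in a library. In the 4th such pair, Wnt10b and Wnt1, 11.7 kb apart on chromosome 15, neither was detected. The log2 ratio was 1.49 ± 0.17 for Wnt9a over its sequence relative Wnt9b and 1.19 ± 0.06 for Wnt3 over Wnt3a (SD, n = 2). The pseudocount of 1 largely sets these sizes: with 0.1 added in its place the means were 3.90 and 3.48.

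Fzd3 had the highest level of the 10 Frizzled receptors, of which 9 were detected. Fzd3 (chr14:65192449-65262463), known for its part in axon guidance and planar polarity, was at 33.30 TPM in replicate 1 and 33.49 in replicate 2, a mean of 33.4 ± 0.134. It took 46.7% and 48.8% of the summed Frizzled level of 71.2 and 68.6 TPM. With 7533 and 7826 counts it also had the most reads of the 45 genes, spread over a main transcript, Fzd3-202, of 12734 bases. Over all transcripts its values barely differed between the libraries and were close to those of Wnt7b. Over the coding transcript alone they were 30.6 and 33.5 TPM. The rest lay on Fzd3-201, 426 bases long and without a coding biotype, with 2.67 and 0 TPM from 16.9 and 0 counts. By the second quantification Fzd3-201 was at 0 in both libraries and the gene at 42.4 and 45.5 TPM.

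Fzd6, the closest relative of Fzd3 and also a polarity receptor, was at 5.56 and 5.41 TPM. Fzd3 stood at 5.99 and 6.19 times Fzd6 over all transcripts, and at 9.20 and 9.33 times over coding transcripts. The pair was called apart on either basis, with a log2 ratio of 2.41 ± 0.03 over all transcripts.

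Fzd9, whose gene is part of the Williams syndrome region in humans, was at 8.64 and 7.62 TPM, and Fzd1 at 7.77 and 6.93. The values of Fzd9 and Fzd1 overlapped. Fzd1, Fzd2 and Fzd7 form a subfamily with closely related coding sequences: Fzd2 was at 3.40 TPM in both libraries and Fzd7 at 4.17 and 3.42. Fzd1 lay above Fzd2 by a log2 ratio of 0.92 ± 0.10, and Fzd7 stood at 1.23 and 1.01 times Fzd2. No pair of the subfamily was called apart with the pseudocount of 1, but with 0.1 Fzd1 and Fzd2 were, at a mean of 1.09. Fzd1 and Fzd2 share 81.3% of aligned coding bases and an identical run of 47 bases, the longest of the 26 pairs compared together with Fzd1 and Fzd7.

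Fzd8 was at 3.78 and 3.85 TPM, and Fzd5, its relative, at 0.55 and 0.54. Fzd5 was the Frizzled below the detection level, but with 73 and 68 counts it was measured. Fzd8 stood at 6.87 and 7.13 times Fzd5. Fzd4, the Frizzled through which Norrin acts on the vessels of the retina, was at 2.84 and 2.42 TPM, and Fzd10 at 1.23 and 1.49. Fzd9 was called apart from both, with a log2 ratio of 1.95 ± 0.23 over Fzd10, and of Fzd4 over Fzd9 of -1.33 in each library. Levels within the Frizzled family therefore fell from Fzd3 through a middle group to Fzd10 and Fzd5.

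Lrp6 was higher than Lrp5. Lrp6 (chr6:134446476-134566965) was at 19.96 TPM in replicate 1 and 24.89 in replicate 2, and Lrp5 (chr19:3584828-3686564) at 5.46 and 5.93. Both are long transmembrane coreceptors with coding sequences of 4842 bases for Lrp5 and 4839 for Lrp6. Lrp6 stood at 3.66 and 4.20 times Lrp5, took 78.5% and 80.8% of their sum, and the log2 ratio of Lrp5 over Lrp6 was -1.80 ± 0.14 (SD, n = 2).

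Of the SFRP genes, which encode secreted Wnt-binding proteins, Sfrp1 was at 12.01 TPM in replicate 1 and 9.52 in replicate 2, and Sfrp2 at 6.92 and 7.01. Both values of Sfrp1 lay above both of Sfrp2, but by a log2 ratio of 0.55 ± 0.23 that did not reach the size for a call. Sfrp4 was at 1.12 and 0.67 TPM from 43 and 38 counts, so it passed the detection level in replicate 1 alone, and Sfrp5 was at 0.69 and 0.81. Sfrp1 was called above Sfrp5, with a log2 ratio of 2.74 ± 0.29, and Sfrp2 above Sfrp4, with 2.08 ± 0.25.

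The DKK genes were the most unequal role. Dkk3 (chr7:112116017-112159057), the divergent member of the family, which differs from the others in not acting as a typical Lrp6 antagonist, was at 32.54 TPM in replicate 1 and 29.31 in replicate 2, a mean of 30.9 ± 2.28. It took 97.9% and 97.2% of the summed DKK level. Dkk2 was at 0.67 and 0.79 TPM, Dkk1, the classical Lrp6 antagonist, at 0.04 and 0.05 from 2 counts in each library, and Dkk4 at 0 counts in both. Dkk3 was the sole DKK gene detected. By the second quantification Dkk1 was at 0.362 and 0.526 TPM and Dkk4 at 0.202 and 0.274, still below the detection level.

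The order of the Axin genes depended on the quantification. Axin1, the constitutive scaffold of the beta-catenin destruction complex, was at 17.15 TPM in replicate 1 and 18.65 in replicate 2. Axin2, which is also a widely used target gene of the pathway, was at 18.58 and 17.84. Their ranges overlapped and the log2 ratio of Axin1 over Axin2 was -0.02 ± 0.12 (SD, n = 2); with 2 values this does not show that they are equal. By the second quantification Axin2 was higher in both libraries, at 32.9 and 29.6 TPM against 23.4 and 22.9 for Axin1, with a mean log2 ratio of -0.42 that was not called apart.

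All 4 TCF/LEF genes were detected at low levels. Tcf7l2 was at 8.33 TPM in replicate 1 and 5.92 in replicate 2, Tcf7 at 3.48 and 3.62, Lef1 at 3.06 and 3.28, and Tcf7l1, mostly known as a repressor, at 2.49 and 2.04. Tcf7l2, also strongly expressed in the developing thalamus, was the highest in both libraries. It was called above Tcf7l1, with a log2 ratio of Tcf7l1 over Tcf7l2 of -1.30 ± 0.16, but over coding transcripts the mean was -1.06, and there and in the second table the pair did not pass in both libraries. Tcf7l2 over Lef1 was 1.20 in replicate 1 and 0.69 in replicate 2, and Tcf7 over Lef1 had a mean of 0.13; neither was called apart.

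**Figure D2:**
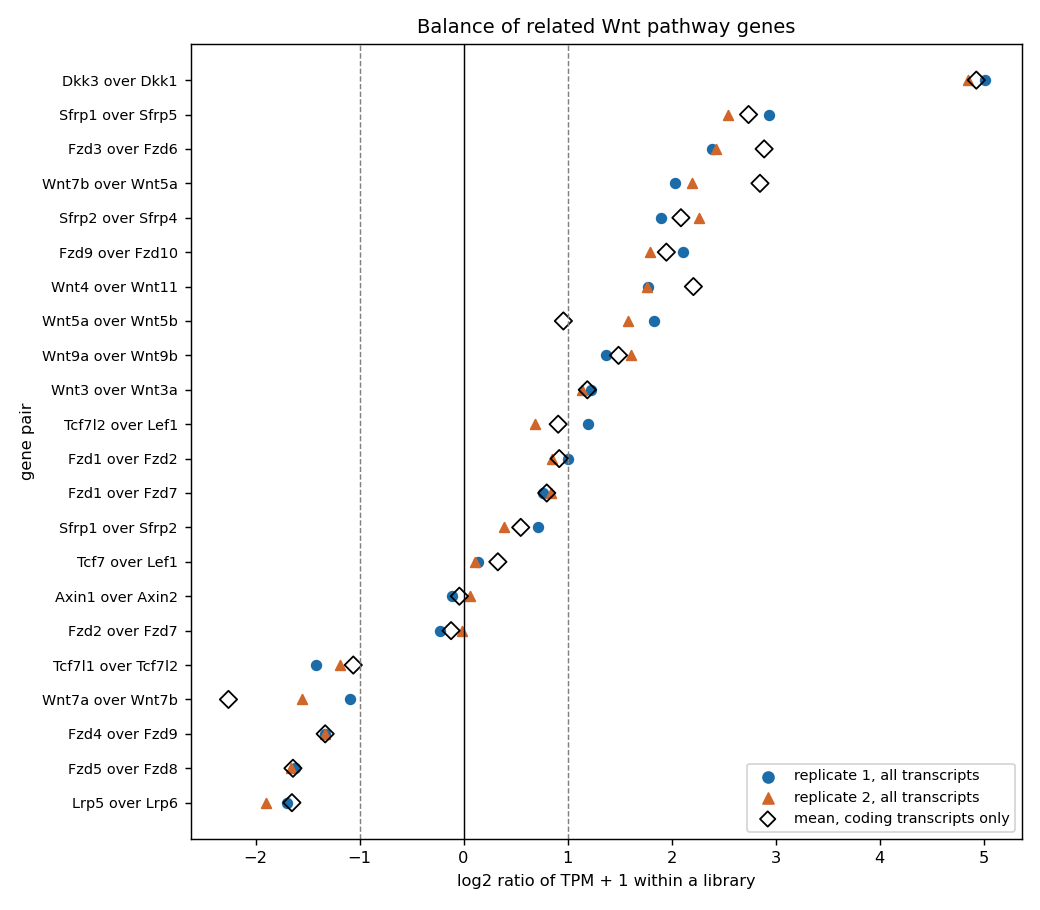
Log2 ratio of TPM + 1 on the x axis for the pairs of related genes, on the y axis, in which at least 1 gene had a mean TPM of at least 1; circles are replicate 1, triangles replicate 2 and open diamonds the mean over protein-coding transcripts only, and dashed lines mark a log2 ratio of 1 in either direction. Several diamonds lie away from the other symbols of their pair. They include Wnt7a over Wnt7b at -2.26, Wnt5a over Wnt5b at 0.96 and Wnt7b over Wnt5a at 2.85.

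In all, 15 of the 26 pairs of related genes were called apart. Besides those given above, Wnt4 over Wnt11 was 1.77 ± 0.01, Wnt7b over Wnt5a 2.12 ± 0.12, and Dkk3 over Dkk1 4.93 ± 0.11 (SD, n = 2), the last becoming 7.74 with a pseudocount of 0.1. In the pairs Wnt8a and Wnt8b, Wnt10a and Wnt10b, Wnt2 and Wnt2b, and Dkk1 and Dkk2, both genes were under 1 TPM in both libraries. With 1 added to each TPM their log2 ratio could not reach 1, so no call was possible. With a pseudocount of 0.1, Dkk1 and Dkk2 were called apart, at a mean of -2.51, and so were Fzd1 and Fzd2, both detected, at 1.09.

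Ordered by mean level, the 28 detected genes formed 27 neighbouring pairs, and in 14 of them the values of the libraries overlapped. The top of the order, Wnt7b, Fzd3, Dkk3, Lrp6 and Axin2, had no such overlap between neighbours. For Wnt7b and Fzd3 this rested on 33.54 against 33.49 TPM in replicate 2. Over coding transcripts (33.0 and 33.5) and by the second quantification (44.4 and 45.5) Fzd3 was the higher there, so their order is not resolved. On these same 2 bases Dkk3 was above Fzd3 in replicate 1 (32.5 against 30.6, and 45.9 against 42.4 TPM). In replicate 2 it was below (29.3 against 33.5, and 40.8 against 45.5), so their order is not resolved either. Lrp6 and Axin2 overlapped by the second quantification, at 30.3 and 37.9 against 32.9 and 29.6 TPM. Below the top, the order in the first table was not resolved for Axin2 and Axin1, Wnt7a and Sfrp1, or Lrp5 and Fzd6. The same held for the run from Fzd9 through Fzd1, Wnt5a and Tcf7l2 to Sfrp2, and the run from Fzd8 through Fzd7 to Wnt4. It also held for the run from Fzd4 through Tcf7l1 and Wnt6 to Wnt9a, and the run from Wnt5b through Fzd10 to Wnt3. The SD over the mean had a median of 7.73% over the detected genes, against 6.05% over all detected protein-coding genes.

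Several levels depended on which transcripts were counted. Lrp6 held 14.8% and 18.9% of its level on transcripts without a coding biotype, Axin2 10.6% and 10.9%, Axin1 8.28% and 14.7%, Tcf7l2 16.8% and 17.7%, Lef1 19.9% and 14.3%, Wnt6 35.4% and 32.7%, and Fzd6 40.1% and 33.6%. Lrp5 held 4.95% and 10.6% there, and Fzd3 8.02% and 0. Among the detected genes Wnt7a and Wnt5a, given above, had the highest shares. Wnt7b kept nearly all of its level on coding transcripts: it was at 34.9 and 33.0 TPM over these, and its share of the summed coding level of the ligands was 61.7% and 58.7%, whereas that of Wnt7a was 11.1% and 11.3%.

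**Figure D3:**
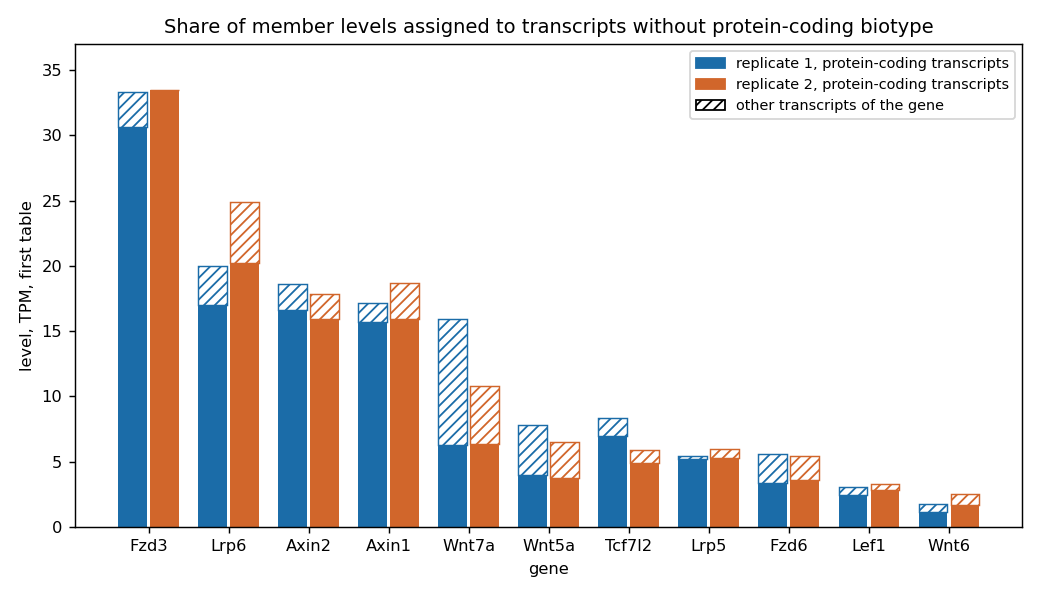
Level in TPM on the y axis, from 0, for the 11 genes with more than 2% of their level on transcripts without a protein-coding biotype in at least 1 library; filled bars are coding transcripts, hatched parts the other transcripts, blue replicate 1 and orange replicate 2. The hatched part of Wnt7a differs between the libraries while its filled parts are 6.29 and 6.34 TPM.

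The transcript with the highest level was the same in both libraries and both sets of tables for 12 of the 17 detected genes with several annotated transcripts, or 70.6%, against 66.0% of all such protein-coding genes. The 12 included Fzd3-202, with 92.0% and 100% of its gene's level in replicates 1 and 2, Lrp5-201 with 90.1% and 84.1%, Lrp6-201 with 70.3% and 64.3%, Axin1-201 with 57.9% and 57.5%, Axin2-201 with 53.4% and 55.4%, Tcf7-201 with 77.0% and 57.2%, and Tcf7l1-201 with 70.4% and 85.8%. Tcf7l2-209 led with 45.0% and 48.4% among 22 annotated transcripts. The 5 exceptions were Wnt5a, Wnt5b, Wnt6, Wnt7b and Fzd6.

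The Wnt5b transcript assigned the highest level differed between the libraries, and in replicate 1 also between the sets of tables. By the first set Wnt5b-203 held 85.3% in replicate 1 and Wnt5b-204 100% in replicate 2, and in the second table Wnt5b-202 held 86.7% in replicate 1 and Wnt5b-204 all of replicate 2. The posterior SDs were 13.6 and 13.1 reads for Wnt5b-203, beside 55.4 and 0 counts, and 13.1 and 13.5 for Wnt5b-204, beside 0 and 63.0. With the sets of tables also apart in replicate 1, a difference between the libraries in the leading transcript was not resolved. The gene's own level, 1.49 and 1.50 TPM, did not move with these assignments. Fzd6-201 led with 59.9% in replicate 1 but Fzd6-202 with 36.2% in replicate 2. These transcripts have coding sequences of equal length, 2127 bases, and Fzd6-202 led in both libraries of the second table with 66.6% and 60.4%. In replicate 2 of the first set Fzd6-201 and Fzd6-202 had 120 and 153 counts with posterior SDs of 48.5 and 50.6 reads. Their order there was not resolved.

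The level of Wnt7b was spread over several coding transcripts. Wnt7b-202 held 40.6% and 43.7% and Wnt7b-201 40.1% and 36.8% in the first table, with the order turned in the second. The posterior SD of their counts was large beside the difference: 89.9 and 80.6 reads for Wnt7b-201, which had 892 and 746 counts, and 103 and 88.7 for Wnt7b-202, which had 840 and 823. Which of them was higher was therefore not resolved, while Wnt7b-204, with 15.4% and 13.9%, was lower in both libraries.

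Lef1, whose product bends DNA and binds beta-catenin, had 2 main transcripts that differ by an exon. Lef1-201 held 51.2% and 50.9% of the level, and Lef1-202, which lacks the exon, 20.7% and 34.8%. Counts were 103 and 104 for Lef1-201 and 40.6 and 69.6 for Lef1-202, with posterior SDs of 22.5 and 26.4 reads for the latter, so the share without the exon was poorly measured at this depth. In the second table Lef1-202 was at 0.0431 and 1.44 TPM. The 84-base exon, exon 6 of 12 of Lef1-201, is shown because the split between these transcripts rests on reads over it or across its ends (GENCODE M21, GRCm38, chr3:131191023-131191106, plus strand):
Lef1 exon: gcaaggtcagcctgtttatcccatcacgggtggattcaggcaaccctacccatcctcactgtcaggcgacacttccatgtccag
For Axin1 the lesser transcripts were not resolved either. In the first set of tables Axin1-203 held 23.2% in replicate 1 and 0 in replicate 2, and Axin1-202 10.7% and 27.8%. The posterior SDs were 90.2 and 81.2 reads for Axin1-203, beside 215 and 0 counts, and 87.2 and 81.2 for Axin1-202, beside 97.7 and 262. In the second set Axin1-202 held 41.0% and 40.6% and Axin1-203 under 0.1% in both libraries, so the libraries did not differ there.

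**Figure D4:**
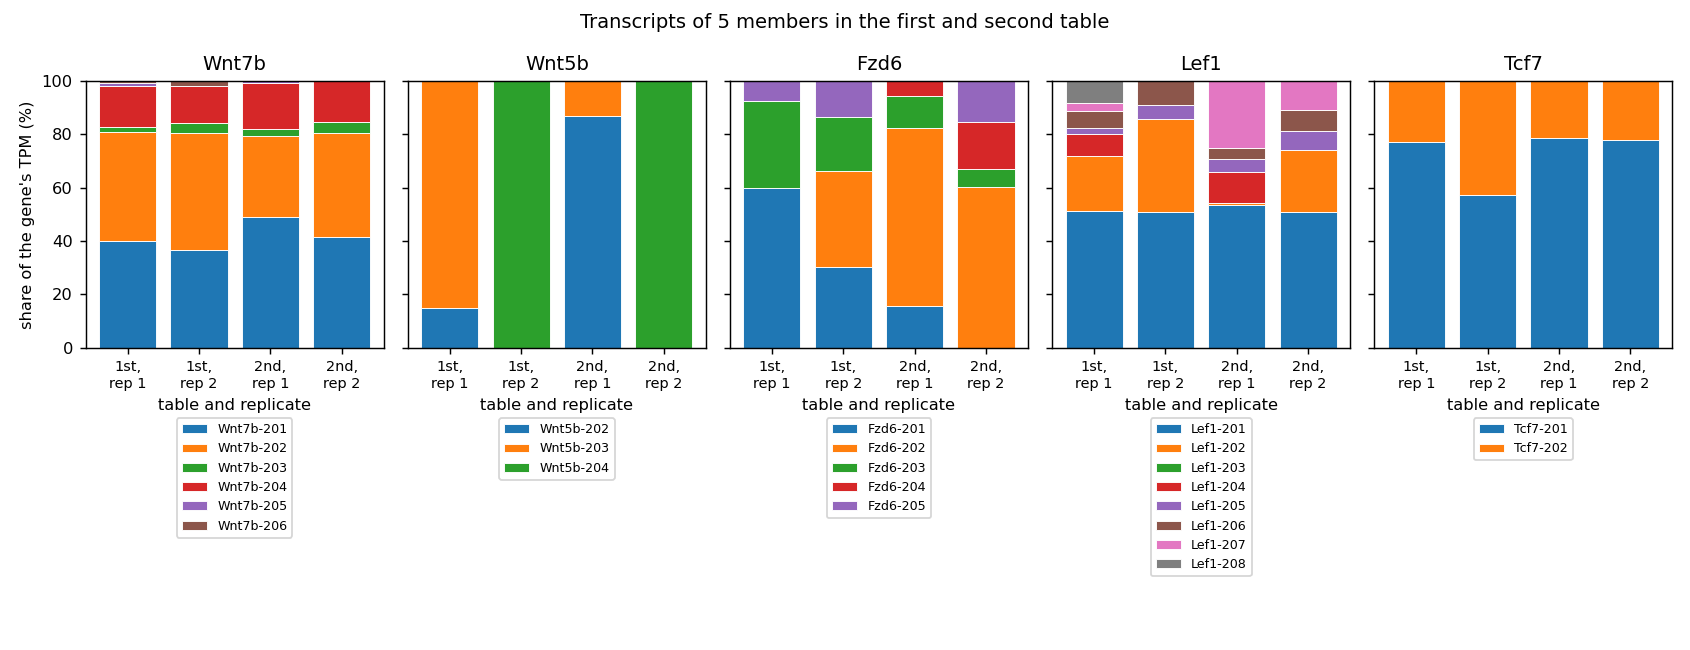
Share of the gene's TPM, in percent on the y axis, held by each annotated transcript of Wnt7b, Wnt5b, Fzd6, Lef1 and Tcf7; each gene has a bar for replicate 1 and replicate 2 of the first set of tables, then of the second set. The Wnt5b transcript assigned the highest share differs between libraries, whereas Lef1-201 is at 51.2% and 50.9% in the first set.

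The genes were then compared between the libraries on counts, by an exact two-sided binomial test on scaled counts with Benjamini-Hochberg adjustment over all 18494 genes tested. The test compares these libraries, not conditions, and covers counting error only. Of the 45 genes, 36 had enough counts and 0 were called at an adjusted p under 0.05 with a log2 ratio past 1 or -1, against 2.88% of all genes tested, 0.557% higher in replicate 1 and 2.33% higher in replicate 2. By adjusted p alone, 8 of the 36 passed, against 25.2% of all genes, 7 of them higher in replicate 1, against 13.4%, and 1 higher in replicate 2, against 11.8%; 9 had an unadjusted p under 0.05. The median log2 ratio of replicate 1 over replicate 2 was 0.07 for the 36 genes and 0.01 for all genes tested.

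The sizes were modest. The count of Sfrp1 was 997 in replicate 1 and 752 in replicate 2, a scaled ratio of 1.35 with a 95% Clopper-Pearson interval of 1.22 to 1.48 (adjusted p = 1.91e-08, binomial). Tcf7l2 had 434 and 314 counts, a ratio of 1.40 with an interval of 1.21 to 1.63 (adjusted p = 6.07e-05, binomial). Dkk3 had 2060 and 1767 counts, a ratio of 1.18 with an interval of 1.11 to 1.26. These were the members with the smallest adjusted p, and each was higher in replicate 1.

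Fzd7, with 359 and 280 counts, had a ratio of 1.30, Fzd4, with 365 and 296, of 1.25, Fzd1, with 618 and 525, of 1.20, and Wnt7b, with 2061 and 1860, of 1.13. Lrp6 went the other way, with 2643 and 2925 counts and a ratio of 0.918 (0.870 to 0.967). For Wnt7a the ratio of counts was 1.11 with an interval of 0.965 to 1.28 (adjusted p = 0.294, binomial), although its TPM was 15.95 and 10.76. The TPM gap of Wnt7a thus had no counterpart of that size in its counts, and its effective length as deposited was 1330 bases in replicate 1 and 1890 in replicate 2.

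Choroid plexus and blood markers were higher in replicate 1. Of the choroid plexus markers, 7 of 9 were called higher in replicate 1, led by Ttr, a thyroid hormone carrier, at 206.40 and 1.94 TPM, and all 5 blood markers were called higher there, led by Hba-a1, a haemoglobin chain, at 170.78 and 20.93 TPM. No marker of the thalamus list was called; 3 of 6 passed by adjusted p alone and were higher in replicate 1, against 13.4% of all genes, while the list's summed level was 66.1 TPM in replicate 1 and 73.2 in replicate 2. By the same measure 4 of 6 astrocyte markers, 4 of 6 inhibitory neuron markers and 3 of 4 tested oligodendrocyte markers were higher in replicate 1. So were 2 meningeal markers, 1 of radial glia and 1 of striatum. Another inhibitory neuron marker was higher in replicate 2, and excitatory neuron markers split, 2 higher in replicate 1 and 2 in replicate 2. Of oligodendrocyte precursor and hippocampus markers, 1 each passed, both higher in replicate 2. No endothelial marker passed on either basis. The part of any of these in the differences of Sfrp1, Tcf7l2, Dkk3 or the Frizzled genes was not tested.

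**Figure D5:**
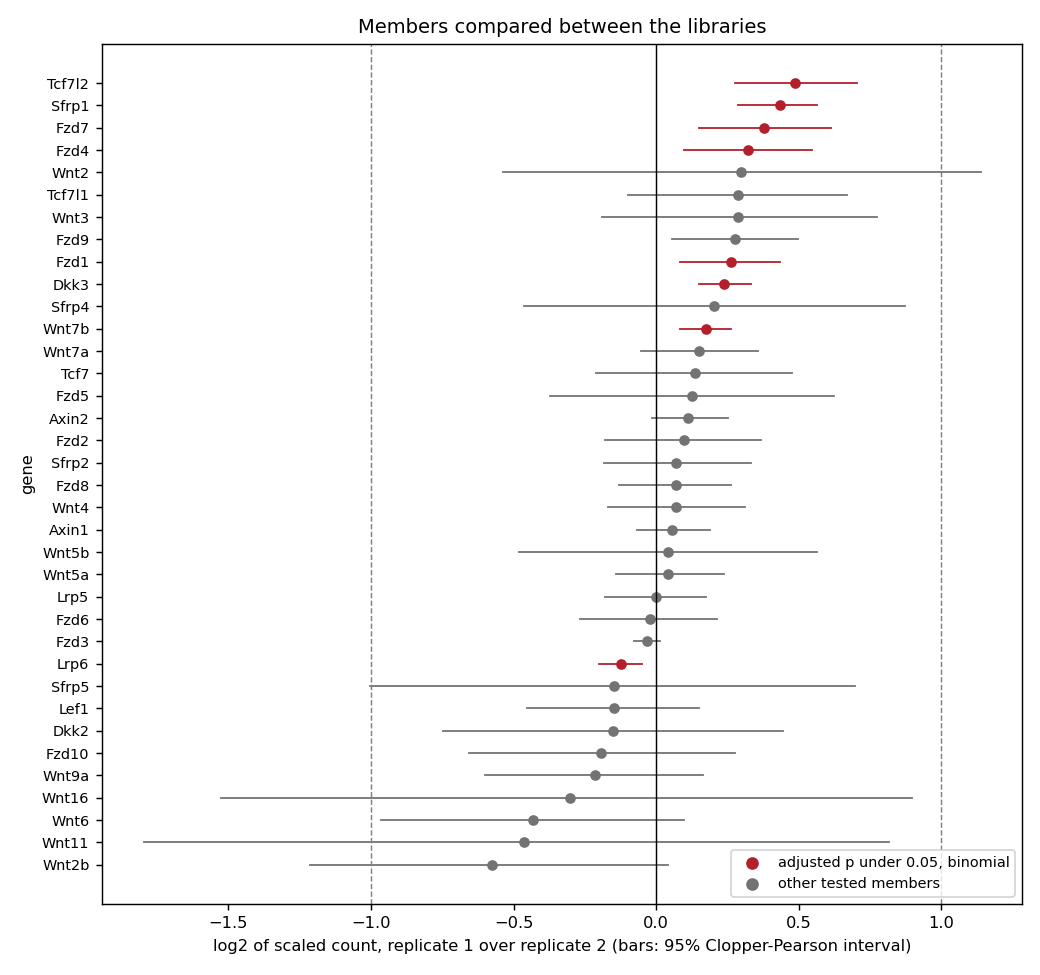
Log2 of the scaled count ratio of replicate 1 over replicate 2 on the x axis for the 36 genes tested, on the y axis; bars are 95% Clopper-Pearson intervals, red marks an adjusted p under 0.05 (exact binomial) and dashed lines a log2 ratio of 1 in either direction. All red points lie inside the dashed lines, 7 of them to the right of 0 and Lrp6 to the left.

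The second set of tables, made by another quantification of the same reads, gave mostly higher levels. Of the 28 detected genes, 27 were lower in the first table in both libraries, with a median log2 ratio of the first over the second of -0.41, against -0.55 for all detected protein-coding genes. Wnt7a was the exception, with a mean of 0.38. None of the 28 was apart by a log2 ratio of 1 in both libraries, against 5.39% of detected protein-coding genes.

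Around these 45 genes, 75 other genes of the pathway were looked up from a list made by role; 66 were detected, against 59.8% of all protein-coding genes, and the median level of the 75 was 12.9 TPM. Of the 72 with enough counts, 1 was called between the libraries, Kremen2, a Dkk receptor with 4 counts in replicate 1 and 16 in replicate 2 (log2 ratio -1.85, adjusted p = 0.0476, binomial), against 2.88% of all genes tested. By adjusted p alone 19 of the 72 passed as higher in replicate 1, against 13.4% of all genes, and 5 as higher in replicate 2, against 11.8%. The test covers counting error only, so small shifts pass at high counts. Ctnnb1, for example, passed at a log2 ratio of 0.13 from 17697 and 16452 counts. The shares are therefore not comparable between sets that differ in counts.

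The intracellular machinery had higher summed levels than the ligands and receptors. All 15 genes of the dishevelled and destruction complex group were detected: Ctnnb1, beta-catenin itself, was at 365.30 and 364.94 TPM in replicates 1 and 2, Apc, a scaffold of the complex, at 279.14 and 316.47, and the lowest, Amer1, at 13.85 and 14.98. Their summed level was 1731 TPM in replicate 1 and 1771 in replicate 2. All 11 nuclear partners were detected as well, with Aes, a short Groucho-type corepressor, at 257.29 and 237.82 TPM, Bcl9l, a beta-catenin coactivator, at 58.16 and 55.88, and Hbp1 lowest at 9.97 and 10.20. By contrast, the 4 TCF/LEF genes summed to 17.4 and 14.9 TPM.

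Of the 4 genes for processing and secretion of ligands, 3 were detected. Porcn, which attaches the lipid to the serine shown above, was at 21.87 and 24.61 TPM, Wls, which carries ligands to the cell surface, at 11.54 and 11.82, and Trabd2b, a protease that inactivates ligands and the lowest of the group, at 0.77 and 1.07. Of the R-spondins and their receptors, which set how long Frizzled receptors stay at the surface, 6 of 9 were detected: Znrf3, a ligase that removes Frizzled, was at 10.32 and 8.72 TPM, Lgr4 at 9.54 and 8.48, and Rspo4 at 0 counts in both libraries.

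Of 14 other secreted or surface modulators, 11 were detected. Apcdd1, an inhibitor of the pathway, was at 38.48 and 36.89 TPM, Draxin, a secreted axon guidance protein that can bind Lrp6, at 22.92 and 20.82, and Sost, lowest, at 0.03 in both libraries. Frzb, named because the symbol rule left it out, was at 3.64 and 3.58 TPM, between Sfrp2 and Sfrp4. Of 14 other receptors and planar polarity genes, 12 were detected, with Celsr2 at 65.50 and 73.98 TPM, Celsr3, a cadherin needed for axon tracts, at 43.63 and 55.41, and Ror1 lowest at 0.74 and 0.70. Of the common target genes, all 8 were detected, with Tnfrsf19 at 37.50 and 38.21 TPM, Myc at 28.79 and 27.84, and Fgf20 lowest at 1.06 and 1.22. Fgf20 rested on 10 and 11 counts. By the second quantification its mean was 0.138 TPM, below the detection level.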

How the data were processed

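A pair of table sets was used for each of 2 libraries of 1 group. Expected counts of genes and transcripts come from the first table and were deposited by the authors; estimated counts come from the second, per the file headers. TPM values, as deposited, are scaled by effective length in both. The percent of a gene's TPM per transcript and the posterior SD of each count, a score here, are as deposited by the authors. Assembly mm10 and GENCODE M21 are named in the deposited file descriptions; the aligner was not given in the sources used here, nor were quantifier versions. CAST/EiJ alleles were not modelled.

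The 45 genes were matched on symbol and joined on gene identifier. Members, pairs and lists were chosen with earlier results of these data known. Every member was named, with pairs apart; of each pathway list the 2 highest and the lowest by mean TPM and any called gene; of marker lists the sums and highest genes. Expected counts were rounded for the binomial test (summed count at least 20, TMM factors 0.985 and 1.02 from edgeR 4.0.16 in R 4.3.3, 0.5 added to counts for log2 ratios). On counts simulated with counting error alone it recovered 94.0% of 200 genes changed 4-fold among 18510 tested and called 0 unchanged genes. The simulation held no other variation between libraries. It therefore checks the computation and gives neither the rate of false calls in the real libraries nor the recovery of smaller changes. Other steps used scipy 1.17.1 and numpy 2.4.6 under Python 3.11.15, with matplotlib 3.10.9 and pandas 2.3.3. DESeq2 1.42.0 gave other size factors. Coding sequences are from GENCODE M21 transcripts. Of the listed pathway symbols, 1 was not found in the annotation.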

Additional observations from a re-analysis of the deposited data

How the results depend on the processing

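Of the 45 genes, 28 were detected as reported, 15 at a TPM of at least 5, and 28 to 29 with a replicate left out; the other settings gave 28 to 37. No gene was called between libraries with library totals, DESeq2 size factors, no count filter or the second quantification, and 8 without the size threshold. Between the quantifications, 0 genes were apart as reported, 2 with a pseudocount of 0.1 (Dkk1 and Dkk4, both under 1 TPM), and 0 to 1 with a replicate left out, the 1 being Tcf7l1 at -1.10 in replicate 1. Pairs apart ranged from 13 to 17, with 13 over coding transcripts only, an alternative chosen after seeing the data, where Wnt5a with Wnt5b and Tcf7l1 with Tcf7l2 lost the call. The count of 12 genes with the same dominant transcript was 8 of 11 at a mean TPM of at least 5 and 12 to 16 with a replicate left out. Scaling TPM over protein-coding genes alone raised levels 1.90-fold and the second quantification 1.42-fold in the median. No called pair changed sign; small ratios of pairs not called did, such as Tcf7 over Lef1, 0.13 as reported and -0.07 by the second quantification. No paired analysis was possible because there was 1 group. Genes with a few counts, such as Dkk1 or Wnt3a, cannot be ordered at this depth.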

Other observations

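RefSeq promoter windows (GRCm38.p6, 250 bases before to 50 after a start) matched 30 of the 45 genes, in 38 windows. The 15 genes without a window included Wnt7b, Fzd3, Dkk3 and Lrp6, those with the highest mean levels, so the values below leave these out. The letters CTTTGAA or CTTTGAT, or their reverse complements, a core recognised by TCF/LEF factors, stood in 3 of the 38 windows, 7.89%, against 8.65% of 32851 windows in the table. They were windows of Wnt5b, Wnt11 and Dkk1. Median GC content was 67.3% in the windows of the 45 genes and 52.7% over all windows, and in the first window of each gene 75.3% for 17 detected genes and 66.3% for 13 not detected. A match is a run of letters and not evidence of binding.

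Celsr1, a planar polarity cadherin singled out after its values were seen, was at 4.00 TPM in replicate 1 and 2.50 in replicate 2 from 699 and 472 counts, a log2 ratio of 0.59 (adjusted p = 2.34e-10, binomial), whereas Celsr3 was at 43.63 and 55.41 TPM with a log2 ratio of -0.14 (adjusted p = 3.17e-08, binomial).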
